A study of Mus musculus with 194 samples.

Results

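Transposon insertions were followed across the mouse genes of potassium channels and their accessory subunits. The set holds the 92 protein-coding genes of the mouse genome (build GRCm38, also called mm10) whose symbols begin with Kcn, except Kcnj10 and Kcnj16, out of 21631 such genes on the autosomes and X. It comprises 8 Kcna genes, 2 Kcnb, 4 Kcnc, 3 Kcnd, 8 Kcnh, 13 Kcnj, 14 Kcnk, 1 Kcnma, 4 Kcnn, 5 Kcnq, 2 Kcnt and 28 others. The measure was the number of insertions in the gene body and 10 kb on each side, here called the locus, per 1000000 insertions of a table (IPM). The members had a median gene length of 32.4 kb, against 17.3 kb over all genes. In 42 of the 92 loci the body of another gene lay within the same span, so that an insertion there counts for both genes.

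The insertions came from calling cards, in which a transposase delivered by adeno-associated virus (AAV) leaves a transposon at TTAA sequences, and the transposon is later read out with the DNA beside it. Virus was given on postnatal day 0 to 1. Libraries of self-reporting transposons (SRT) were read from RNA, and each cortex was cut into 10 pieces that were indexed separately. In the BrokenHeart libraries the readout was DNA, with a pool of 20 barcoded transposons. C57bl6J mice (2 animals) received viruses that need no Cre. Syn1Cre (6 animals) and GFAPCre (6) are Cre lines named for the promoters of synapsin 1, used to drive expression in neurons, and of the astrocyte filament gene, and Syn1CreNeg (6) and GFAPCreNeg (6) are the groups labelled Cre-negative. The labels do not name the particular lines or which virus these 4 groups received. Frontflip_GFAPCre (3) and Frontflip_GFAPCreNeg (3) carried a construct that the labels call Frontflip. SP1_P28 (4) and SP1_P10 (3) are Syn1Cre mice labelled with SP1, the name of a transcription factor that binds GC-rich promoter sequence, and with P28 or P10, taken to mean the postnatal day 28 or 10. How SP1 was delivered is not described, nor is the collection age of the other cortices. Rbp4Cre_TRAP (4) is whole forebrain of a Cre line named for Rbp4, a gene used to mark projection neurons of cortical layer V, labelled TRAP, which the labels do not spell out. N2a, a neuroblastoma line of the mouse, had 3 experiments combined in 1 table, so it gives values with no test. The 194 deposited samples were combined into 47 tables, 1 for each of 46 animals and 1 for N2a, and the animal was the replicate.

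Potassium channels let potassium leave the cell, which brings the membrane back to rest after a spike and sets how readily and how fast a neuron fires. Voltage-gated channels (Kcna, Kcnb, Kcnc, Kcnd, Kcnh and Kcnq) open on depolarisation, Kcnma and Kcnn channels respond to calcium and Kcnt channels to sodium, Kcnj channels rectify inwardly, and Kcnk channels carry background current. Kcnc channels open and close fast and are known for sharpening the spikes of fast-spiking inhibitory interneurons, Kcnip proteins are cytosolic partners of the Kcnd channels, Kcnmb proteins are partners of the calcium-activated channel Kcnma1, and Kcnab proteins are partners of the Kcna channels. Kcnf, Kcng and Kcnv genes encode subunits that form no channel alone and modify the Kcnb channels. Insertions of an undirected transposase gather in open chromatin, so that a locus can gain insertions where its chromatin is accessible.

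Depth differed widely between groups and bounds what each can show. A table held between 443158 and 1364948 insertions in Syn1Cre, 97519 and 556145 in Syn1CreNeg, 600443 and 1505413 in GFAPCre, 208057 and 597230 in GFAPCreNeg, and 1545951 and 2186743 in C57bl6J. The SP1_P28 tables held between 108965 and 577609 insertions, SP1_P10 between 86842 and 95331, Rbp4Cre_TRAP between 24408 and 57014, BrokenHeart between 42511 and 98197, and N2a held 806653. Frontflip_GFAPCreNeg had only 2341 to 9601 insertions per table, and 60 of the 92 loci had none there, so it was left out of every comparison. One Syn1Cre animal stood apart. The loci of 9 astrocyte genes (among them Slc1a2, Slc1a3, Aqp4 and Gja1) summed to 2038 IPM in Syn1Cre animal 5 and to between 600.5 and 856 in the other 5 animals, so results that change without that animal are given both ways. The astrocyte loci summed to between 814 and 1679 IPM in GFAPCre and to between 2113 and 2819 in Syn1CreNeg. Between Syn1Cre and GFAPCre 0 of 9 passed by edgeR, with a median log2 fold change of -0.45. Without animal 5, 5 of 9 were lower in Syn1Cre (Slc1a3, Aldoc, Aqp4, Sox9 and Gja1), with a median of -0.76. The other Syn1Cre animals were not all alike either. No pool joined animals 1 to 3 with animals 4 to 6. Between the locus counts of paired animals, chi-square per degree of freedom was 1.04 to 1.13 among animals 1 to 3 and 1.02 for 4 against 6. It was 1.65 to 2.30 for animals 1 to 3 against 4 or 6. The comparison with GFAPCre is therefore also given for animals 1 to 3 alone.

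Per unit of length, the potassium channel loci held more insertions than the typical gene in every group of mice except Frontflip_GFAPCreNeg, where both medians were 0, and fewer in N2a. In Syn1Cre the median member had 6.06 IPM per 10 kb, against 3.16 over all loci, and 59 of 92 members lay above that value. The corresponding medians were 5.05 and 2.96 in C57bl6J, 5.27 and 2.96 in GFAPCre, 4.55 and 3.35 in BrokenHeart, and 2.29 and 3.26 in N2a, where 34 of the members lay above. Together the members took 9966 ± 232 IPM in Syn1Cre (SD, n = 6), 9973 ± 581 in GFAPCre (n = 6), 8533 ± 246 in Syn1CreNeg (n = 6), 9403 ± 736 in GFAPCreNeg (n = 6) and 9124 ± 41 in C57bl6J (n = 2). They took 7799 ± 337 in SP1_P28 (n = 4), 6743 ± 268 in SP1_P10 (n = 3), 9445 ± 653 in Rbp4Cre_TRAP (n = 4), 8599 ± 816 in Frontflip_GFAPCre (n = 3), 7234 ± 698 in BrokenHeart (n = 3) and 4056 in N2a. Among the groups of mice read from RNA, the means of both SP1 groups lay below those without SP1, except Frontflip_GFAPCreNeg at 6254. The N2a value lay below both SP1 means. These levels are a description with no test.

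Kcna3, a short gene for a delayed-rectifier channel (chr3:107036162-107038129), had the densest locus of the set in most groups without SP1. Its level per 10 kb was 39.73 ± 4.87 IPM in Syn1Cre (n = 6), 37.61 ± 2.70 in GFAPCre (n = 6) and 40.99 ± 0.92 in C57bl6J (n = 2), and 494 insertions in Syn1Cre fell on 80 positions, 66 of them on 1 position. All 494 lay in the flanks and 0 in the gene body, so this density is that of the surroundings of Kcna3. Kcnmb4 and Kcnf1 came next in Syn1Cre, at 26.9 ± 3.0 and 26.0 ± 5.4, and their levels did not differ beyond this spread. In Syn1CreNeg the order was different: Kcnk1, a background channel with strong expression in astrocytes, led with 42.2 ± 8.5 and Kcna3 had 34.4 ± 4.3, again within the spread. In both SP1 groups Kcnk6 led, with 66.7 ± 14.2 in SP1_P28 (n = 4) and 118.6 ± 12.5 in SP1_P10 (n = 3), followed by Kcnj9 with 61.6 ± 15.8 and 45.7 ± 8.5. Within Syn1Cre the densest members of other subfamilies included Kcnh7 at 17.7 ± 1.4, Kcnd2 at 16.6 ± 3.2, Kcnj9 at 16.5 ± 3.3, Kcnc2 at 14.9 ± 1.7, Kcnt2 at 14.1 ± 1.2, Kcnq5 at 9.77 ± 0.52, Kcnn3 at 9.11 ± 1.2 and Kcnma1 at 7.71 ± 0.19. Neighbours in this order from Kcnh7 to Kcnt2 did not differ beyond their spread.

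**Figure D1:**
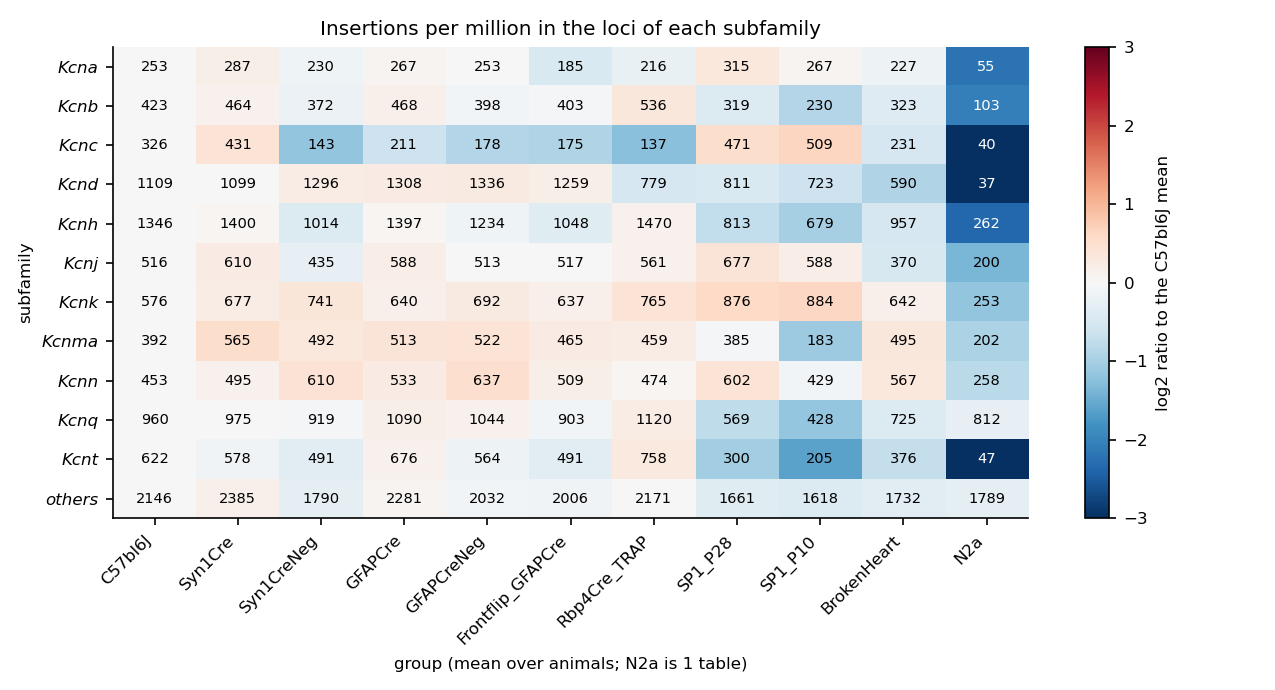
Mean IPM in the loci of each subfamily (rows) in each group (columns), with each insertion counted 1 time per subfamily; the number in a cell is the mean over animals and the colour its log2 ratio to C57bl6J. Kcnc stands at 431 in Syn1Cre, 211 in GFAPCre and 143 in Syn1CreNeg, and Kcnh at 1400 in Syn1Cre and 813 in SP1_P28.

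By subfamily, the Kcnc loci separated Syn1Cre from the other Cre groups without SP1. They held 431 ± 22 IPM in Syn1Cre (n = 6), 326 ± 12 in C57bl6J (n = 2), 211 ± 33 in GFAPCre (n = 6), 178 ± 40 in GFAPCreNeg (n = 6), 143 ± 37 in Syn1CreNeg (n = 6) and 137 ± 17 in Rbp4Cre_TRAP (n = 4). The lowest Syn1Cre animal, at 412.7, lay above the highest GFAPCre animal, at 245.5, and above the highest Syn1CreNeg animal, at 186.7. The Kcnd loci ran the other way, from 1099 ± 165 in Syn1Cre to 1308 ± 62 in GFAPCre and 1296 ± 97 in Syn1CreNeg, with overlapping animals. The Kcnn loci, which hold Kcnn2, had 495 ± 76 in Syn1Cre and 610 ± 81 in Syn1CreNeg, also overlapping.

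To compare the Cre lines named for a neuronal and an astrocyte promoter, the 6 Syn1Cre animals were set against the 6 GFAPCre animals. Of 11553 loci over all genes 2.15% passed the threshold, an adjusted p under 0.05 by edgeR's quasi-likelihood test with Benjamini-Hochberg adjustment over all loci, 1.19% of them higher in Syn1Cre and 0.961% lower. Of the 65 potassium channel loci with enough insertions to be tested, 5 were higher in Syn1Cre, 0 were lower and 60 did not pass. At an unadjusted p under 0.05 there were 18, and DESeq2 called 5 higher and 1 lower. For these 2 counts the share over all loci is not given here. The median log2 fold change of the 65 was 0.06, against -0.00 over all loci. The 5 were Kcnip1, Kcnmb2, Kcnc2, Kcnc1 and Kcnh8, which are accessory subunits or voltage-gated channels, and in each the lowest Syn1Cre animal lay above the highest GFAPCre animal. Over all loci 1.84% were free of overlap in this way (1.8% in IPM). Counts of members free of overlap are taken on the TMM-scaled levels of the fit, which differ from IPM by 1 factor per table.

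Kcnip1 (chr11:33629339-33993348, minus strand), a partner of the Kcnd channels known from inhibitory interneurons, had the largest difference of the set. It had 104 to 158 IPM in Syn1Cre with a median of 148.1, 30.8 to 55.1 in GFAPCre with a median of 51.9, and 102 and 100 in the C57bl6J animals. All Syn1Cre animals were above all GFAPCre animals, by a log2 fold change of 1.43 (SE 0.13 and adjusted p = 3.1e-08 by edgeR), which is 2.69-fold. The 763 Syn1Cre insertions lay on 304 positions, and the most used position held 27 of them. The body of Kcnmb1 lies within the Kcnip1 gene, and the 2 loci share those insertions.

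Kcnc2 (chr10:112269898-112466304, plus strand), one of the fast channels of inhibitory interneurons, had 276 to 362 IPM in Syn1Cre with a median of 320.4 and 105 to 187 in GFAPCre with a median of 143.2. The C57bl6J animals had 251 and 257, between those groups. The log2 fold change was 1.16 (SE 0.14 and adjusted p = 4.2e-06 by edgeR). Kcnc1 (chr7:46396219-46438706), its near relative, had 37.5 to 54.2 in Syn1Cre and 17.9 to 27.6 in GFAPCre, a log2 fold change of 0.91 (SE 0.15 and adjusted p = 0.00067 by edgeR). The groups did not overlap in either gene. When a position was counted 1 time per animal, Kcnc1 had a log2 fold change of 0.53 and an adjusted p of 0.171 by edgeR, so its call rests on positions that several pieces of a cortex shared.

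Kcnmb2 (chr3:31901861-32200180), which inactivates the calcium-activated channel Kcnma1, had 160 to 187 IPM in Syn1Cre with a median of 184.8 and 56.9 to 106 in GFAPCre with a median of 70.8, a log2 fold change of 1.19 (SE 0.13 and adjusted p = 8.9e-07 by edgeR). The pore gene itself, Kcnma1, had a log2 fold change of 0.08 (adjusted p = 0.71 by edgeR). Kcnh8 (chr17:52602709-52979194), a channel of the elk branch of the Kcnh subfamily, had 34.7 to 58.6 in Syn1Cre and 21.7 to 31.2 in GFAPCre, a log2 fold change of 0.78 (SE 0.17 and adjusted p = 0.012 by edgeR). Against Syn1Cre animals 1 to 3 alone, whose labels are laid out like those of GFAPCre, Kcnh8 had 0.46 with an adjusted p of 0.103 by edgeR. The other 4 genes passed there too, and the count was 14, with 7 higher and 7 lower, among them Kcnd2 at -0.71 and Kcnn2 at -0.55. How many of all loci passed with animals 1 to 3 alone is not given here.

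**Figure D2:**
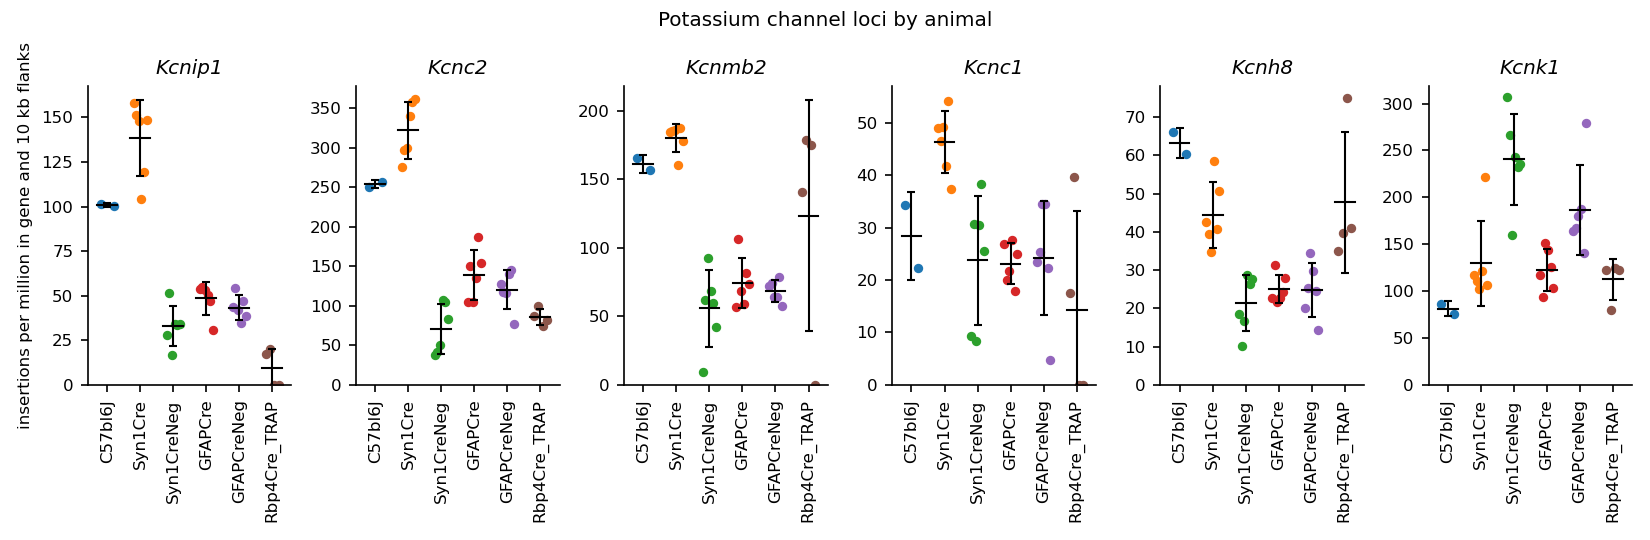
IPM (insertions per 1000000 of the table) in selected potassium channel loci, 1 point per animal, by group, with the group mean and SD. Kcnip1 lies between 104 and 158 in Syn1Cre, above all GFAPCre animals (30.8 to 55.1), and Kcnk1 has its highest mean in Syn1CreNeg.

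In these long genes the excess lay in several stretches and not at 1 site. In 10 kb bins counted from the gene start, the Kcnc2 bin starting at 170 kb held 48.1 IPM in Syn1Cre and 20.1 in GFAPCre, the bin at 130 kb 39.1 and 30.7, and the bin at 40 kb 27.2 and 10.2. In Kcnmb2 the first 10 kb held 28.7 in Syn1Cre and 7.32 in GFAPCre. In Kcnip1 the bin at 150 kb held 21.2 in Syn1Cre and 2.55 in GFAPCre, and the bin at 210 kb 17.8 and 2.67. These bins were chosen after their values were seen and carry no test. The 5 called genes had a median length of 298 kb, against 51.8 kb for the 60 tested members that did not pass, and a longer locus collects more insertions.

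**Figure D3:**
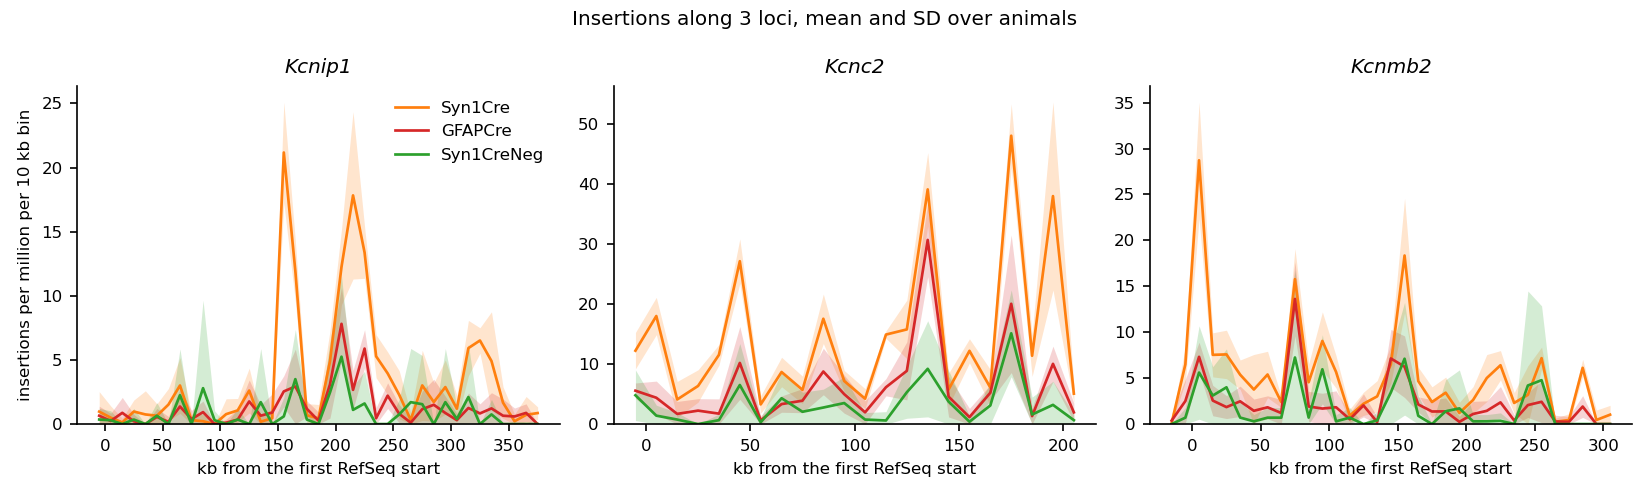
Mean IPM in 10 kb bins along Kcnip1, Kcnc2 and Kcnmb2, by distance from the gene start in kb, with 1 line per group (Syn1Cre, GFAPCre, Syn1CreNeg) and a band of 1 SD over animals. The Syn1Cre line peaks at 48.1 IPM in Kcnc2 and 28.7 in Kcnmb2, above GFAPCre in both bins.

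Among the members of the fixed panel that did not pass, Kcnd2 had a log2 fold change of -0.37 (adjusted p = 0.11), Kcnq5 -0.36 (adjusted p = 0.065) and Kcnt2 -0.29 (adjusted p = 0.16) by edgeR, and Kcna1 had 0.41. Without Syn1Cre animal 5 the count was 9 in place of 5, with 6 higher and 3 lower. The lower ones were Kcnd2 at -0.46, Kcnn2 at -0.39 and Kcnq5 at -0.36. The loci of 9 GABAergic neuron genes moved with the 5 called members. They summed to between 821 and 1018 IPM in Syn1Cre and 147 to 221 in GFAPCre, and 8 of the 8 tested were higher, with a median log2 fold change of 2.31. Of 8 tested projection neuron loci 2 were higher, Cux2 and Bcl11b (3 with Tbr1 without Syn1Cre animal 5), and the part of either list in the potassium channel values was not tested. No pool of libraries held both groups, so pool and Cre line cannot be told apart. In all such bulk tables, fewer cells of a type and fewer insertions per cell cannot be told apart either.

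To compare Cre-positive with Cre-negative mice, Syn1Cre was set against Syn1CreNeg. Here 31.1% of 8613 loci passed, 13.6% higher and 17.5% lower in Syn1Cre. Of 53 potassium channel loci tested, 21 were higher in Syn1Cre, 2 were lower and 30 did not pass, with a median log2 fold change of 0.38 against 0.02 over all loci. In 9 members the groups did not overlap, against 6.97% of all loci: Kcnip1, Kcnc2, Kcnmb2, Kcnh8, Kcnf1, Kcnmb4, Kcnh1, Kcnab1 and Kcnj3. In IPM 8 of them did not, Kcnf1 being the exception, against 7.28% of all loci. The comparison shares its Syn1Cre tables with the one against GFAPCre, and the 5 genes called there were higher here too. Kcnip1 had 16.8 to 51.3 IPM in Syn1CreNeg with a median of 33.8, which gave a log2 fold change of 2.01 (SE 0.17 and adjusted p = 1.0e-08 by edgeR). Kcnc2 had 37.2 to 108 there with a median of 66.6 and a log2 fold change of 1.91 (SE 0.18 and adjusted p = 4.7e-08), and Kcnmb2 had 9.33 to 92.4 and 1.62 (SE 0.17 and adjusted p = 4.6e-07).

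The other genes higher in Syn1Cre, at smaller differences, were voltage-gated channels, Kcnj channels and partner or silent subunits, and 0 members of Kcnd, Kcnk, Kcnma, Kcnn or Kcnt were higher. Of the remaining voltage-gated channels, Kcnh3, of the elk branch, had 0.95 (adjusted p = 0.020), Kcnh8 0.83 (adjusted p = 0.0095) and Kcna1, an axonal channel, 0.81 (adjusted p = 0.011) by edgeR. Kcnf1, a silent subunit, had 0.73 (adjusted p = 0.0061) and Kcnc1 0.65 (adjusted p = 0.025). Kcnh1 had 0.58, Kcnh7 0.36 and Kcnb2 0.38, and the channels opened by G proteins, Kcnj3 and Kcnj6, had 0.48 and 0.49. Leaving out Syn1CreNeg animal 5 brought the count to 16, the lowest, and leaving out Syn1Cre animal 5 to 30, the highest. Without Syn1CreNeg animal 5, Kcnh3 had an adjusted p of 0.10, Kcna1 0.07, Kcnf1 0.054 and Kcnb2 0.094 by edgeR, and Kcnc1 lost its call without Syn1CreNeg animals 3, 4 or 6.

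Kcnk1 and Kcnn2 were the 2 loci lower in Syn1Cre. Kcnk1 (chr8:125993655-126030685) had 102 to 221 IPM in Syn1Cre with a median of 113.9, and 160 to 307 in Syn1CreNeg with a median of 239.3. The groups overlapped through Syn1Cre animal 5, which had 221, and the log2 fold change was -0.95 (SE 0.17 and adjusted p = 0.00018 by edgeR). Kcnn2, a small-conductance calcium-activated channel, had 268 to 476 and 391 to 533, overlapping, with a log2 fold change of -0.58 (SE 0.15 and adjusted p = 0.0034 by edgeR). The astrocyte loci moved with them: 8 of 8 tested were lower in Syn1Cre, with a median of -1.50, while 8 of 8 GABAergic loci were higher, with a median of 2.08. Their part in the potassium channel values was not tested. No pool held both groups, so pool and genotype cannot be told apart here.

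GFAPCre and GFAPCreNeg, which did share pools in part, gave few calls. Of 9203 loci 8.15% passed, 2.18% higher and 5.97% lower in GFAPCre. Of 56 potassium channel loci 2 were higher, 2 were lower and 52 did not pass, and in 0 members were the groups free of overlap, against 3.43% of all loci, nor in IPM, against 3.63%. At an unadjusted p under 0.05 there were 14, and DESeq2 also called 4, again without the share over all loci. Kcnv1, a silent subunit, had 51.6 to 101 IPM in GFAPCre and 38.5 to 71.6 in GFAPCreNeg, a log2 fold change of 0.65 (SE 0.17 and adjusted p = 0.016 by edgeR). Kcng3, another silent subunit, had 79.9 to 108 and 52.9 to 85.7, a log2 fold change of 0.51 (SE 0.14 and adjusted p = 0.017). Kcnk1 had 93.7 to 152 and 141 to 279, a log2 fold change of -0.57 (SE 0.14 and adjusted p = 0.011), and Kcnn2 320 to 385 and 381 to 634, a log2 fold change of -0.41 (SE 0.12 and adjusted p = 0.026). Each of the 4 overlapped between the groups.

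These same 4 genes were called in the same direction between Syn1Cre and Syn1CreNeg, where 13.6% of all loci were higher and 17.5% lower. The share of all loci called in both comparisons is not given here. The 2 comparisons share no table, but some pools held GFAPCre and Syn1CreNeg animals together. Within the GFAPCre and GFAPCreNeg animals that share a pool, with the pool as a block, only Kcnv1 passed (log2 fold change 1.05, adjusted p = 0.042 by edgeR). Kcnk1 there had -0.60 (adjusted p = 0.156), Kcng3 0.69 (adjusted p = 0.113) and Kcnn2 -0.44 (adjusted p = 0.266). Without GFAPCre animal 2 the calls of Kcng3 (adjusted p = 0.062) and Kcnn2 (adjusted p = 0.053) were lost and the count was 2, and Kcnn2 also lost its call without GFAPCre animal 5 or 6 or GFAPCreNeg animal 1, 2 or 6. Of 9 astrocyte loci 3 were lower in GFAPCre (Gja1, Slc39a12 and Slc1a2), with sums of 814 to 1679 IPM against 1480 to 3095, and 0 of 4 tested GABAergic loci passed. Kcnip1, at 0.17, and Kcnc2, at 0.18, did not pass.

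To compare the line named for a projection neuron marker with the neuronal line, Rbp4Cre_TRAP was set against Syn1Cre, at far lower depth in Rbp4Cre_TRAP. The groups also differ in tissue (whole forebrain against cortex) and in the TRAP preparation, and no pool held both, so that Cre line, tissue, preparation and pool cannot be told apart. Of 10693 loci 2.11% passed, 0.196% higher and 1.92% lower. Of 62 potassium channel loci 3 were lower in Rbp4Cre_TRAP, 0 were higher and 59 did not pass. In simulated data for this comparison only 28% of 3-fold changes were recovered. In 14 members the groups did not overlap, against 13.3% of all loci, and in IPM they did not in 8, against 10.9%. Kcnip1 had 17.5, 19.9, 0 and 0 IPM in the 4 Rbp4Cre_TRAP animals, all below the lowest Syn1Cre animal, at 104. That is 2 insertions in all against 763 in Syn1Cre, a ratio 11.8-fold lower with a 95% counting interval of 3.25 to 97.3, and the fit gave an adjusted p of 7.6e-05 by edgeR. Kcnc2 had 87.7, 99.3, 74.9 and 81.9, all below the Syn1Cre range of 276 to 362. Its 15 insertions against 1813 were 3.73-fold lower (95% counting interval 2.25 to 6.67, adjusted p = 2.2e-05 by edgeR).

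Kcnmb2, also called between the Syn1Cre and GFAPCre lines, did not pass here. It had 140, 179, 175 and 0 IPM, so 2 of the Rbp4Cre_TRAP animals lay in the Syn1Cre range of 160 to 187. On the TMM-scaled levels the highest of the 4, at 170.1, was below the lowest Syn1Cre animal, at 182.4, and the log2 fold change was -0.62 (SE 0.30 and adjusted p = 0.33 by edgeR). Kcnh8 had 35.1, 39.7, 74.9 and 41.0, and all 4 were at or above the lowest Syn1Cre animal. Kcnd2, a pore partner of the Kcnip proteins, had 842, 596, 474 and 574 against 716 to 1140 in Syn1Cre and passed with a log2 fold change of -0.74 (SE 0.21 and adjusted p = 0.049 by edgeR). Its groups overlapped, and the call was lost with the gene body alone (adjusted p = 0.106), with scaling by total insertions (0.176), with DESeq2 (0.107) and when any 1 of 8 animals was left out. Kcnip2 had a log2 fold change of -2.10 (adjusted p = 0.054 by edgeR), and -2.15 (adjusted p = 0.032) without Syn1Cre animal 5. The GABAergic loci summed to between 0 and 150 IPM in Rbp4Cre_TRAP and were at 0 in animals 1 and 2, with 5 of 9 lower (7 of 9 without Syn1Cre animal 5), projection neuron loci to between 3140 and 4138 against 2130 to 2685 in Syn1Cre, and astrocyte loci to between 179 and 574. Whether these sums account for the potassium channel values was not tested.

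The SP1 groups gave by far the most calls. Between SP1_P28 and Syn1Cre 51.5% of 12053 loci passed, 26.2% higher and 25.3% lower in SP1_P28. Of 66 potassium channel loci 12 were higher, 32 were lower and 22 did not pass, so that the shares were 18.2% higher and 48.5% lower. The median log2 fold change of the members was -0.61, against -0.06 over all loci. In 40 members the groups did not overlap, against 39.3% of all loci, and in IPM in 35, against 39.2%. The split depended on the scaling: with scaling by total insertions in place of TMM, the median of all loci rose by 0.42 and 19 members were higher and 21 lower. Between SP1_P10 and Syn1Cre 40.7% of 12787 loci passed, 20.1% higher and 20.6% lower, and of 66 potassium channel loci 10 were higher, 31 lower and 25 did not pass, with a median of -0.92 against -0.26. In 44 members the groups did not overlap there, against 47.0% of all loci, and in IPM in 35, against 43.5%. Scaling by total insertions raised the median of all loci by 0.27 and gave 11 members higher and 18 lower. For neither SP1 comparison is the share of all loci called with that scaling given here. Both comparisons use the same Syn1Cre tables, no pool held SP1 and Syn1Cre animals together, and the age of the Syn1Cre cortices is not given, so SP1, pool and age cannot be told apart.

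The median length of the genes was smaller for the loci higher in SP1 than for the lower ones, though their ranges overlapped. The 12 genes higher in SP1_P28 had a median length of 19.02 kb, the 32 lower ones 266 kb, and the 22 others 36.6 kb. The corresponding medians over all genes were 15.5 kb for loci that were higher and 89.4 kb for those that were lower, so the same order held over all genes. The higher loci held on average 1.75 bodies of other genes, the lower ones 0.44. At P10 the median lengths were 18.1 kb and 196 kb. The shortest gene among the lower loci was Kcna3, at 1.97 kb, with a log2 fold change of -0.91 (adjusted p = 0.00023) at P28 and -0.79 (adjusted p = 0.049) at P10 by edgeR, while the higher genes spanned 8.28 to 51.4 kb. The Kcna3 values rest on its flanks, with 0 insertions in the gene body in Syn1Cre, SP1_P28 and SP1_P10.

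**Figure D4:**
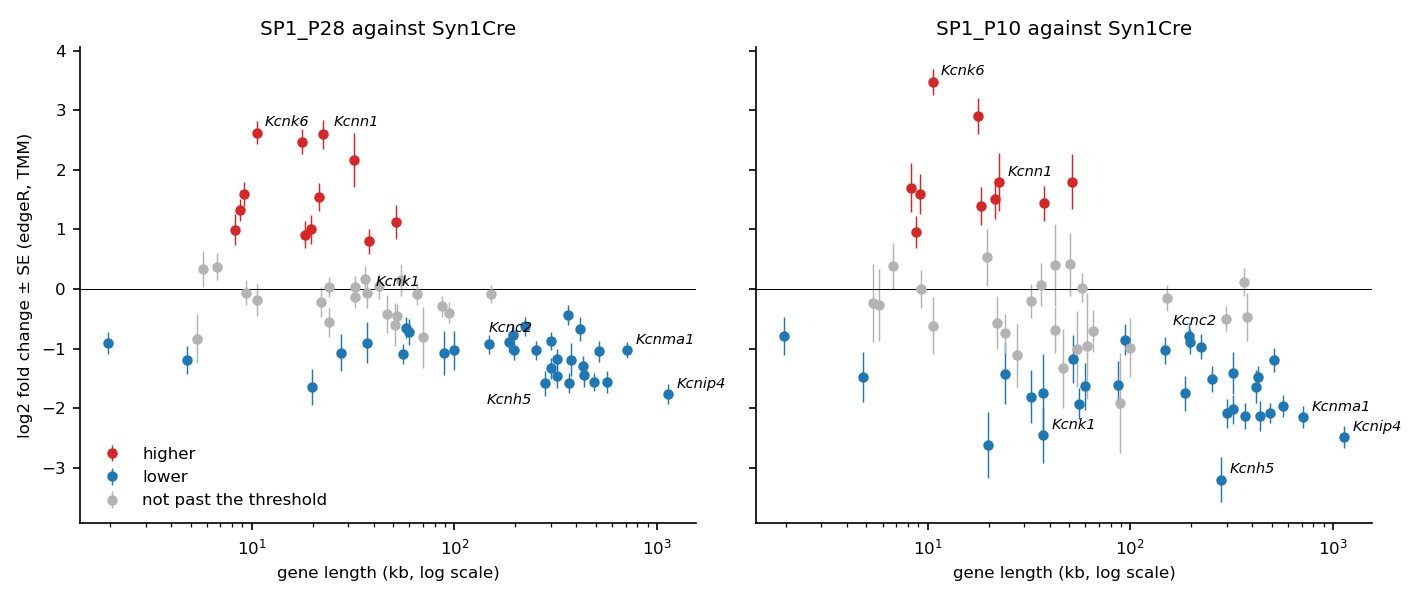
Log2 fold change with its standard error in SP1_P28 (left) and SP1_P10 (right) against Syn1Cre, after TMM scaling, by gene length in kb on a log axis, 1 point per tested potassium channel locus, coloured by call. Kcnk6 at 2.62 and Kcnn1 at 2.60 lie highest at P28, and Kcnip4, the longest gene of the set, lies lowest there.

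Kcnk6, a background channel gene (chr7:29221928-29232522), had 16.4 to 30.6 IPM in Syn1Cre with a median of 21.7, then 220, 257, 182 and 158 in SP1_P28 and 322, 368 and 399 in SP1_P10. The 3 groups did not overlap with each other. The log2 fold change against Syn1Cre was 2.62 (SE 0.19 and adjusted p = 3.8e-11) at P28 and 3.48 (SE 0.22 and adjusted p = 3.5e-12) at P10 by edgeR. Most of these insertions lay beyond the Kcnk6 body: 8 of 200 were inside it in SP1_P28 and 1 of 99 in SP1_P10, against 15 of 124 in Syn1Cre. The most used position, chr7:29238636, lies 6114 bases from the body in a flank that also holds other genes (the locus takes in Catsperg1 and Yif1b), and held 44 insertions in SP1_P28, 32 in SP1_P10 and 37 in Syn1Cre. The values therefore describe the neighbourhood and not the Kcnk6 gene alone.

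Over their whole loci, the fast channels Kcnc1 and Kcnc2 were not higher in SP1. Kcnc2 had log2 fold changes of -1.03 at P28 and -0.88 at P10, both past the threshold, and Kcnc1 had 0.05 (adjusted p = 0.87) and -0.69 (adjusted p = 0.18) by edgeR. The loci of the Kcnc subfamily as a whole held 471 ± 60 IPM in SP1_P28 (n = 4) and 509 ± 41 in SP1_P10 (n = 3), against 431 ± 22 in Syn1Cre.

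Kcnn1, a small-conductance calcium-activated channel (chr8:70843158-70865691), had 5.46 to 19.1 IPM in Syn1Cre, 90.6, 119, 91.1 and 100 in SP1_P28 and 80.6, 33.4 and 62.9 in SP1_P10. All SP1 animals were above all Syn1Cre animals, and the log2 fold change was 2.60 (SE 0.24 and adjusted p = 3.4e-09) and 1.80 (SE 0.48 and adjusted p = 0.0042) by edgeR. Without SP1_P10 animal 1 the latter had an adjusted p of 0.069. In SP1_P28 43 of 107 insertions were in the body, where the log2 fold change was 2.25. Of the other members of its subfamily, Kcnn4 had too few insertions to be tested, with 37 in Syn1Cre and 17 in SP1_P28, or 2.26 to 10.6 and 6.08 to 20.8 IPM by animal, overlapping. Kcnn3 had -0.09 (adjusted p = 0.64) at P28, and 0.39 (adjusted p = 0.039) with scaling by total insertions, and Kcnn2 had -0.67 (adjusted p = 0.0058) by edgeR.

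Kcnh2, the channel of the cardiac rapid delayed rectifier (chr5:24319589-24351684, minus strand), was rare in Syn1Cre at 0.733 to 10.7 IPM and had 30.2, 18.4, 18.2 and 29.4 in SP1_P28, a log2 fold change of 2.16 (SE 0.45 and adjusted p = 0.00030 by edgeR). Of the 29 SP1_P28 insertions 18 lay on 1 position, chr5:24351902, 218 bases beyond the end of the body where transcription of this gene begins, in all 4 animals, and 8 of the 9 insertions of SP1_P10 lay there too, in 3 of 3 animals. In Syn1Cre the most used position was another one, chr5:24359467.

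The remaining higher loci were smaller in size, and several rested on flanks. Kcng1, a silent subunit, had 1.54 at P28 with 83 of 97 insertions in the body. Kcnk4, a mechanosensitive background channel, had 1.59 with 21 of 106 in the body, in a locus that takes in Esrra, Catsperz, Gpr137 and Bad. Kcnj9, a channel opened by G proteins, had 1.33 with 21 of 166 in the body, 0.28 (adjusted p = 0.59) over the body alone and 0.36 (adjusted p = 0.25) with distinct positions by edgeR. At P10 Kcnj9 had 0.96, and -1.08 (adjusted p = 0.38) over the body alone. Kcnh4 and Kcnj14 had 1.00 each, Kcnh3 0.91 and Kcnmb3 0.80, with 11.2% to 20.4% of their insertions in the body. Of the 12, 10 were also higher at P10, where Kcnj14 (1.70) and Kcnj9 lost their calls without SP1_P10 animal 3. The exceptions were Kcnh4, with 0.53 (adjusted p = 0.38 by edgeR) at P10, and Kcnh2. With 9 insertions in SP1_P10, Kcnh2 had too few to be tested there, so it is not a negative result.

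The lower loci were mostly those of long genes. Kcnip4, a partner of the Kcnd channels and the longest gene of the set (chr5:48389503-49525122), had 837 to 1070 IPM in Syn1Cre, 410, 294, 316 and 462 in SP1_P28, and 265, 223 and 231 in SP1_P10. The 3 groups did not overlap, and the log2 fold change was -1.76 (SE 0.17 and adjusted p = 4.0e-09) at P28 and -2.49 (SE 0.19 and adjusted p = 9.3e-11) at P10 by edgeR. Kcnh5, of the ether-a-go-go branch (chr12:74897217-75177332), had 115 to 176 in Syn1Cre, 47.4, 36.7, 54.7 and 88.3 in SP1_P28, and 23.03, 22.28 and 20.98 in SP1_P10. Its log2 fold changes were -1.58 and -3.20. At P28 Kcnv1 had -1.65, Kcnt2, a sodium-activated channel, -1.57, Kcnq5 -1.56, Kcnh7 -1.56, Kcnq1 -1.46 and Kcnb2 -1.45, all 6 free of overlap.

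By subfamily, 5 of 8 tested Kcnh loci were lower at P28 and 3 higher, and 2 of 2 Kcnd loci lower. Kcnq3, a channel of the muscarine-sensitive current, had -0.88 at P28 and -2.09 at P10. Kcnip1 had -0.44 (adjusted p = 0.031) at P28, 0.03 with scaling by total insertions and -0.03 over the body alone, and 0.12 (adjusted p = 0.70) at P10. It lost its call at P28 when any 1 of 5 animals was left out. Its IPM, 129, 184, 103 and 152 at P28 and 138, 189 and 315 at P10, overlapped with Syn1Cre. The loci of GABAergic genes were not lower in SP1: 2 of 9 were higher at P28 and 7 of 9 at P10.

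SP1_P28 and SP1_P10 could be compared with each other in 3460 loci, of which 11.2% passed, 7.46% higher and 3.73% lower at P28. Of 32 potassium channel loci 6 were higher at P28, 1 was lower and 25 did not pass, and the groups did not overlap in any of the 7. In 11 members they did not overlap, against 24.2% of all loci, and in IPM in 13, against 22.6%. Kcnk1 had 233, 128, 249 and 98.7 IPM at P28 and 11.5, 44.6 and 42.0 at P10, all lower than any P28 animal, with a log2 fold change of 2.44 (SE 0.46 and adjusted p = 0.0045 by edgeR). Kcnma1 (chr14:23292288-24005110), the pore of the large-conductance calcium-activated channel, had 379, 385, 358 and 417 at P28 and 173, 178 and 199 at P10, a log2 fold change of 1.19 (SE 0.23 and adjusted p = 0.0045). Syn1Cre, whose age is not given, had 539 to 580.

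Kcnq3 had 172, 184, 176 and 189 IPM at P28 and 69.1, 100 and 73.4 at P10, a log2 fold change of 1.28 (SE 0.28 and adjusted p = 0.0063 by edgeR). Kcnn2 had 1.03 (adjusted p = 0.012), Kcnh1 0.92 (adjusted p = 0.048) and Kcnip4 0.80 (adjusted p = 0.035), and Kcnk6 was lower at P28 with -0.78 (adjusted p = 0.019). The 3 P10 animals limit these calls: without animal 1, 2 or 3 the count was 3, 4 or 1, and Kcnk1 alone kept its call whichever of the 7 animals was left out. SP1_P10 and SP1_P28 animals shared pools in part. Of 4 astrocyte loci tested, Slc1a2 and Slc1a3 were higher at P28, with sums of 999 to 2248 IPM against 860 to 1125, and of 7 GABAergic loci 2 were lower. Their part in the potassium channel values was not tested.

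To see where in the loci the SP1 insertions lay, insertions within 1 kb of a RefSeq gene start were counted for the 67 members with a start in the promoter table. In Syn1Cre 2.76 ± 0.24% of the insertions in these loci lay that close to a start (n = 6), in GFAPCre 2.44 ± 0.39% (n = 6) and in N2a 3.03%. The share was 10.0 ± 1.0% in SP1_P28 (n = 4, from 8.61% to 11.03%) and 13.4 ± 1.4% in SP1_P10 (n = 3, from 12.2% to 14.9%), so that no SP1 animal overlapped with Syn1Cre. Over all genes with a start the share was 8.41% in Syn1Cre, 21.8% in SP1_P28 and 25.3% in SP1_P10. The gain toward starts was thus shared by genes at large, and the members, which are longer, had the smaller share throughout.

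**Figure D5:**
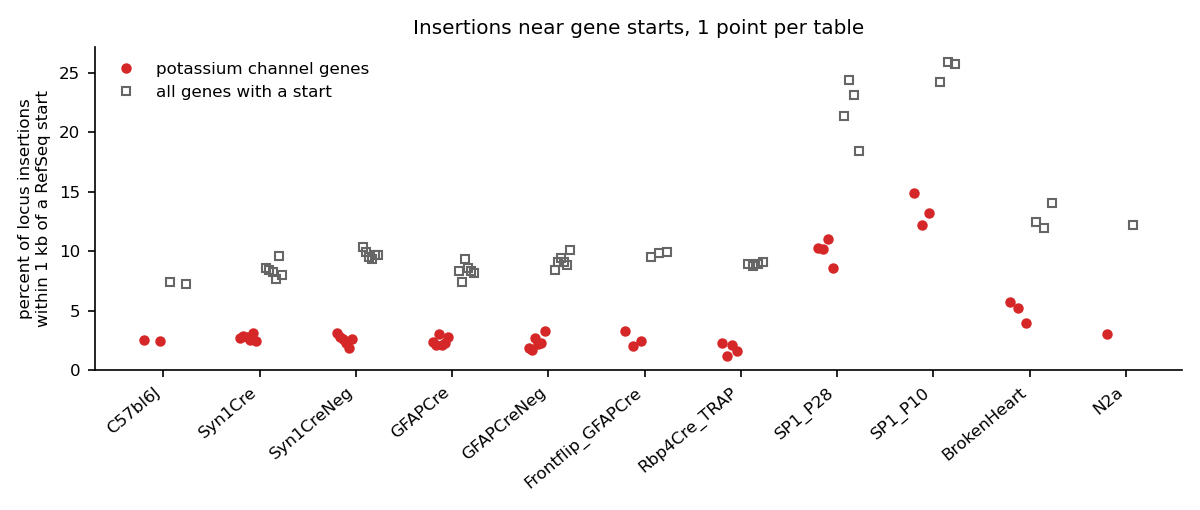
Percentage of the insertions in gene loci that lie within 1 kb of a RefSeq start, 1 point per animal, for potassium channel loci and for all genes with a start, by group. Potassium channel loci lie at 2.76% in Syn1Cre, 10.0% in SP1_P28 and 13.4% in SP1_P10.

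In tests of the start windows, 64.8% of 2492 windows passed at P28, 34.8% higher and 30.0% lower, and 59.8% of 2535 at P10, 29.3% higher and 30.4% lower. Only 8 members had enough insertions to be tested at P28, of which 2 were higher and 4 lower, and 6 at P10, of which 2 were higher and 2 lower. In simulated data for the P10 windows, 11% of 3-fold changes were recovered and 21.4% of calls were false. Kcna4, an inactivating axonal channel (chr2:107290589-107326804), had 0, 2.38, 1.12, 4.40, 2.26 and 0.781 IPM at its start in the Syn1Cre animals, 34.5, 27.5, 48.6 and 34.6 in SP1_P28 and 57.6, 33.4 and 52.4 in SP1_P10. In IPM all SP1 animals lay far above all Syn1Cre animals. After TMM scaling the gap was narrow: the lowest SP1_P28 animal had 10.1 and the highest Syn1Cre animal 8.86. At P10 these were 11.1 and 8.52. The log2 fold change after scaling was 2.24 (SE 0.42 and adjusted p = 2.6e-05) at P28 and 2.17 (SE 0.59 and adjusted p = 0.0022) at P10 by edgeR. At P10 the adjusted p was 0.074 with distinct positions and 0.092 within 5 kb.

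Kcnc2 rose at its start while its whole locus was lower. It had 3.36 to 15.8 IPM at the start in Syn1Cre, 51.7, 91.8, 85.0 and 48.5 in SP1_P28 and 104, 78.0 and 105 in SP1_P10, with no overlap, and log2 fold changes of 1.15 at P28 (SE 0.26 and adjusted p = 0.00028) and 1.38 at P10 (SE 0.35 and adjusted p = 0.0012) by edgeR. The windows called lower depended on the scaling. Scaling by total insertions moved the median of all windows by 2.02 at P28 and 2.36 at P10, and turned Kcnab1 from -1.48 to 0.40, Kcnmb2 from -1.47 to 0.33, Kcnip4 from -1.42 to 0.41 and Kcnh7 from -0.83 to 1.01. At P10 it turned Kcnab1 from -1.83 to 0.48 and Kcnip2 from -1.83 to 0.44. In IPM, Kcnh7 had 20.3 to 36.1 in Syn1Cre and 47.4, 64.2, 54.7 and 53.7 in SP1_P28. The fall of these windows was thus relative to other starts.

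The promoter table (RefSeq, build GRCm38) allows single insertion sites to be read at these starts. The sites below were chosen after their values were seen, to show where in a promoter SP1 insertions fell and where Syn1Cre insertions did. Each is written 5′ to 3′ on the strand of the gene, and the capitals mark the TTAA at which the transposon inserts. Distances are counted from RefSeq starts, which can lie within the gene body.
Kcnc2, 77 bases upstream: tggagatctgtgcTTAAagagtgcaggtag
Kcnc2, 181 bases upstream: ctgtcagctgtcaTTAAggaaaagatacaa
Kcnc2, 80 bases upstream of a later start: tgggggaattgcaTTAAgaacaggggaggg
Kcnn3, 82 bases upstream: aggggttggagagTTAAgccaagccaatga
Kcnk5, 29 bases upstream: ggctgagagctgcTTAAagagccctgcgga
Kcnk1, 42 bases upstream: ggctatagtagctTTAAtcaggaggaatgc
Kcnmb2, 57 bases upstream: ctcctgcacgcttTTAAaaacagtctggac

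At the Kcnc2 start, neighbouring TTAA sites were used unequally by the groups. The site 77 bases upstream (chr10:112269940-112269943) had 5 insertions in 2 of 6 Syn1Cre animals, 22 in 4 of 4 SP1_P28 animals and 4 in 2 of 3 SP1_P10 animals, which is a mean of 0.635, 23.6 and 14.3 IPM. This site lies inside the gene body, because the RefSeq start it precedes does. The site 181 bases upstream (chr10:112269836-112269839) had 27 in Syn1Cre, 7 in SP1_P28 and 2 in SP1_P10, or 5.34, 8.48 and 7.34 IPM. The site by the later start (chr10:112271193-112271196) had 0 in Syn1Cre, 10 in 3 SP1_P28 animals and 4 in 3 SP1_P10 animals. In Kcnn3 the site had 0 insertions in Syn1Cre, 10 in SP1_P28, spread over 4 animals, and 2 in SP1_P10. In Kcnk5, a background channel sensitive to pH, it had 1, 8 and 6. In Kcnk1 the site had 34, 8 and 2, or 6.69, 8.35 and 7.43 IPM, and in Kcnmb2 18, 6 and 3, so that these sites were used without SP1 as well.

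The whole stretch of 250 bases upstream is shown for Kcna4, whose start window passed the test, and for Kcnk5 and Kcnn3. They differ in the GC box, the letters GGGCGG searched on both strands, which is the core sequence that SP1 is known to bind. Capitals mark each GGGCGG, or CCGCCC on the other strand, and each TTAA.
Kcna4, chr2:107290339-107290588, plus strand: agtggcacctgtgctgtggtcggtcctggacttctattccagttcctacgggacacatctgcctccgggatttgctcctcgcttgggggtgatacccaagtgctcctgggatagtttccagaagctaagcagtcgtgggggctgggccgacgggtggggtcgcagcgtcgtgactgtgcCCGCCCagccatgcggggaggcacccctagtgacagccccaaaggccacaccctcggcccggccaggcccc
Kcnk5, chr14:20181783-20182032, minus strand: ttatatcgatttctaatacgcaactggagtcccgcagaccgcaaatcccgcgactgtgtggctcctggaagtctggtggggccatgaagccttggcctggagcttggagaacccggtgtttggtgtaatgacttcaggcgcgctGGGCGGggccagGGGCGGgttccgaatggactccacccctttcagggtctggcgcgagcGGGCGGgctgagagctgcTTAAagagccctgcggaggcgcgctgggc
Kcnn3, chr3:89519914-89520163, plus strand: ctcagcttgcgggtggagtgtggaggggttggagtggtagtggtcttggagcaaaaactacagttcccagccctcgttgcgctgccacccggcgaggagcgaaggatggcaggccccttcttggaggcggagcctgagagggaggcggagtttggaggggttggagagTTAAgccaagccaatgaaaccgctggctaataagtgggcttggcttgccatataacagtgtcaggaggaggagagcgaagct

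Kcnk5 has 3 such GC boxes, Kcna4 has 1 and Kcnn3 has 0 in this window. Kcnk5 and Kcnn3 hold 1 TTAA each and Kcna4 holds 0, so its insertions lay elsewhere within 1 kb of the start. Over the 67 members, 33 had a GC box in the 250 bases upstream, or 49.3%, against 43.2% of 17274 genes with a promoter entry, and 28 had a TTAA, or 41.8% against 46.2%. Of the members higher at P28 with an entry, 3 of 6 had a GC box, and of those lower 13 of 24. Over all genes 66.9% of the higher and 48.8% of the lower loci had one. A match is a description of these letters only, and the other members had no entry in the table.

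N2a cells showed another set of dense members, given here without a test since the line has 1 table. Among 12470 loci with at least 10 IPM in C57bl6J, 5.19% were at least 4-fold higher in N2a and 13.6% at least 4-fold lower. Of the 67 potassium channel loci among them 1 was higher and 26 were lower. Kcnab1, a partner of the Kcna channels (chr3:64949212-65378225), had 1103 IPM in N2a (95% counting interval 1032 to 1178) and 315 and 299 in the C57bl6J animals. Kcnq3 had 521 (472 to 573) against 177 in each animal, and Kcnj12, the locus past 4-fold, had 47.1 (33.3 to 64.7) against 10.4 and 10.1. Kcnc2 had 6.20 (2.01 to 14.5) against 251 and 257, and Kcnd2 19.8 (11.3 to 32.2) against 865 and 1000. Kcna3, Kcna6 and Kcnv1 had 0 insertions in N2a, which allows up to 4.57 IPM each, against 88.6 and 91.5 for Kcna3. All these intervals cover counting error only.

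Partner genes of potassium channels outside the Kcn set, such as Dpp6, Dpp10, Cntnap2 and Dlg4, were counted from a list of 23. Of 18 partner loci tested 0 passed between Syn1Cre and GFAPCre. Of 16 tested, 8 were higher and 3 lower in Syn1Cre against Syn1CreNeg (over all loci 13.6% and 17.5%), and 1 was higher and 3 lower in GFAPCre against GFAPCreNeg (over all loci 2.18% and 5.97%). Of 18, 2 were higher and 9 lower in SP1_P28, and of 19, 2 and 11 in SP1_P10, with medians of -0.48 and -0.99, against medians of -0.06 and -0.26 over all loci, of which 26.2% were higher and 25.3% lower at P28 and 20.1% and 20.6% at P10. Of 12, 3 were higher at P28 than at P10 (7.46% of all loci), and of 18, 0 passed in Rbp4Cre_TRAP. Of other channel families in SP1_P28, 2 of 10 sodium channel (Scn) loci were higher and 4 lower, and 4 of 25 calcium channel (Cacn) loci higher and 10 lower, with medians of -0.35 and -0.42. Between Syn1Cre and GFAPCre these families gave 0 of 10 and 1 of 25 (Cacna2d2). Among markers of other cells, 0 of 6 oligodendrocyte loci and 0 of 2 endothelial loci passed between Syn1Cre and GFAPCre, and 1 of 2 microglial loci, P2ry12, was lower in Syn1Cre. Without Syn1Cre animal 5, Olig1 and Olig2 were lower there as well. In SP1_P28, 3 of 6 oligodendrocyte loci and 1 of 2 endothelial loci were lower and 1 of 2 microglial loci was higher.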

How the data were processed

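The deposited tables list 1 insertion per row with its position and read count, per the file headers. They were made on build mm10, and the submitters' processing notes name Novoalign and Bowtie2 without role or version. Each row was taken as 1 insertion, and rows were summed per gene body with 10 kb flanks into counts, so the same position in several pieces of a cortex counted several times. The submitters pooled an animal's libraries into 1 table, per the series' design text, and the animal was the replicate. Among 85 pairs of animals within groups none shared more than 46.7% of positions, so all were kept. Same-numbered animals of compared groups correlated between -0.209 and 0.168, so the numbers do not pair them.

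Counts were tested with edgeR 4.0.16 in R 4.3.3 (quasi-likelihood test, TMM scaling on total insertions, filterByExpr, only the 2 groups compared), with Benjamini-Hochberg adjustment over all loci and an adjusted p under 0.05. Insertions per 1000000 of a table (IPM) are scaled by the table's total, and log2 fold changes by TMM as well. The scripts were tested on simulated data with 200 loci or windows changed 3-fold per comparison. They recovered 28% for Rbp4Cre_TRAP, 40% for SP1_P10 loci and 11% for SP1_P10 start windows, each against Syn1Cre. In the other comparisons they recovered 62% to 92%. False calls were 21.4% in the SP1_P10 start windows and at most 6.6% elsewhere. Named genes were all called members where there were at most 12, otherwise the 8 highest and 8 lowest, plus a panel of 29 genes and the densest members per group. Members, panel and lists (partners, sodium and calcium channels, cell type markers) were chosen with earlier results of these data known. Alternatives were total scaling, DESeq2 1.42.0, distinct positions, positions with at least 2 reads, the gene body alone, no filter, thinning, pool and replicate blocks, and each animal left out. Shares of all loci called are given for the main fits only, and not for these alternatives or for an unadjusted p. Intervals cover counting error only. Some genes are not reported here by name, though the counts include them.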

Additional observations from a re-analysis of the deposited data

Results flagged for a closer look

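Of 108 group values checked for a single animal far from the rest, 9 were noted, and chance gives about 1 in 20. Syn1Cre animal 5, which also had the high astrocyte sum, was the lowest for Kcnj loci at 476.1 IPM (others 594 to 660) and the highest for Kcnn loci at 643.1 (others 428 to 486). Syn1CreNeg animal 1 was lowest for Kcnn at 455.9 (others 613 to 697). GFAPCre animal 3 was lowest for Kcnt at 519.6 (others 678 to 753), and GFAPCreNeg animal 6 lowest for Kcnj at 403.7 (others 507 to 568). SP1_P28 animal 2 was highest for Kcnc at 559.8 (others 431 to 450). Among single genes, Kcnip1 was lowest in GFAPCre animal 6 at 30.8 (others 47.1 to 55.1), Kcnmb2 lowest in Syn1Cre animal 4 at 160.4 (others 178 to 187), and Kcnh8 highest in Rbp4Cre_TRAP animal 3 at 74.9 (others 35.1 to 41.0).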

How the results depend on the processing

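Of the values of single members under the alternatives, 3759 kept their side of the threshold, 147 fell below it, 64 rose past it and 9 reversed. A reversal is a change of sign where the main fit or the alternative passed. Changes of sign where neither passed are counted within the 3759. The reversals were Kcnip1 (0.031) and Kcnn3 (0.39) in SP1_P28 with total scaling, Kcnj9 (-1.08) in SP1_P10 over the body, and with total scaling the SP1_P28 start windows of Kcnab1 (0.40), Kcnh7 (1.01), Kcnip4 (0.41) and Kcnmb2 (0.33) and, at P10, Kcnab1 (0.48) and Kcnip2 (0.44). Counts of called members moved past 1.5 times as follows. Syn1Cre against GFAPCre gave 14 with Syn1Cre animals 1 to 3 alone (7 higher, 7 lower). GFAPCre against GFAPCreNeg gave 2 with distinct positions and 1 with the pool block. SP1_P28 gave 26 over the body and 23 thinned, and SP1_P10 23 and 19. Start windows gave 3 with DESeq2 and 24 within 5 kb at P28, and 1 with distinct positions and 18 within 5 kb at P10. SP1_P28 against SP1_P10 gave 3 with DESeq2 and 3 over the body, and Rbp4Cre_TRAP 6 with no filter. Leaving out 1 animal gave 5 to 9, 16 to 30, 2 to 6, 41 to 46, 35 to 43, 1 to 8 and 2 to 4 calls, in the order Syn1Cre against GFAPCre, against Syn1CreNeg, GFAPCre against GFAPCreNeg, SP1_P28, SP1_P10, SP1_P28 against SP1_P10, and Rbp4Cre_TRAP, and 4 to 9 and 3 to 7 start windows at P28 and P10. The replicate block, with numbers that do not pair the animals, gave 5, 24, 3, 44, 41, 7 and 2 in the same order, and 5 and 3 start windows. Over the gene body the members' IPM were 8719 in Syn1Cre, 7490 in Syn1CreNeg, 8818 in GFAPCre, 8388 in GFAPCreNeg, 7930 in C57bl6J, 7572 in Frontflip_GFAPCre, 5476 in Frontflip_GFAPCreNeg, 8226 in Rbp4Cre_TRAP, 5826 in SP1_P28, 4581 in SP1_P10, 6363 in BrokenHeart and 3285 in N2a. With distinct positions they were 8440 in SP1_P28, 7015 in SP1_P10 and 9262 in Syn1CreNeg. Apart from body, thinning and fewer samples, the cause of these moves was not tested. SP1_P28 start windows with distinct positions gave no tested member. Low depth limits Rbp4Cre_TRAP, SP1_P10 and BrokenHeart.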
